A study of Mus musculus with 2 samples.

Results

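The subject here is 9 genes of the complement system, chosen by symbol: C1qa, C1qb, C1qc, C3, C4b, C3ar1, C5ar1, Cfb and Serping1. All 9 were among the 31053 genes counted in the files, and their RNA was followed across the cell classes of the mouse retina at postnatal day 17. Wild-type C57BL/6 mice either grew up in room air (control) or went through oxygen-induced retinopathy (OIR), in which pups breathe 75% oxygen from postnatal day 7 to day 12 and are then returned to room air, so that the retina becomes short of oxygen. Retinas of 6 mice were pooled for each group, dissociated with papain, enriched on beads carrying an antibody to CD11b, and made into 1 10x droplet library per group. There is thus 1 library in each group and no replicate: intervals are exact 95% counting intervals, they cover counting error only, and no p-value can be given.

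Complement is a cascade of proteins that tags cells and debris for removal. C1q, built from the chains encoded by C1qa, C1qb and C1qc, opens the classical pathway by binding its target; C4 and C2 then build an enzyme that cuts C3, and factor B (Cfb) serves the alternative pathway in the same step. The fragments C3a and C5a are sensed by the receptors encoded by C3ar1 and C5ar1, while the C1 inhibitor (Serping1) restrains the cascade. In the central nervous system microglia are known as the main source of C1q, and C1q and C3 are known for marking synapses that microglia remove. CD11b itself is the product of Itgam, the alpha chain of complement receptor 3, so the cells were captured by a complement receptor.

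The libraries held 50081145 (control) and 49773742 (OIR) unique molecular identifiers (UMIs, each standing for 1 captured RNA molecule), and 8585 and 6132 cells were used. Classes were set by clustering without the complement genes and named from marker lists. Microglia-like cells numbered 837 and 641, Müller glia-like cells 261 and 392, rod-like cells 6678 and 3597, cone-like cells 273 and 594 and bipolar-like cells 269 and 475. All 15 microglia markers, all 10 Müller glia markers and all 8 cone markers were more than 2-fold above their level in rod-like cells in both libraries, as were 10 of 11 bipolar markers. These lists also named the clusters, so this describes the classes and does not test their names. By a per-cell gate on marker UMIs, 468 Müller glia-like cells passed as Müller glia and 151 as rods. Of the bipolar-like cells 532 passed as bipolar and 109 as rods, and of the microglia-like cells 1415 passed as microglia and 25 as rods. Since the beads select CD11b-bearing cells, retinal neurons and Müller glia are cells that passed along with them, and their numbers do not describe the retina. The libraries shared 89 barcodes, 30 of them among the cells used.

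The 3 C1q genes lie side by side on chromosome 4, from 136880129 to 136898803 (18.7 kb, GENCODE M21 on GRCm38, the assembly that mm10 names), all on the minus strand. C3 (57203970 to 57228136), C4b (34728380 to 34743882) and Cfb (34856374 to 34862518) are on chromosome 17, C3ar1 is on chromosome 6 (122847138 to 122856161), C5ar1 on chromosome 7 (16246743 to 16259540) and Serping1 on chromosome 2 (84765387 to 84775444), again all on the minus strand. The RefSeq promoter table (GRCm38.p6) matched 5 of the 9 members. The sequences upstream of C1qb and C1qc are shown because the C1q chains kept nearly the same proportions in both libraries, and that of C3 because it was higher in 1 class of neurons in OIR. The window for C1qb is chr4:136886201-136886450, for C1qc chr4:136893066-136893164 and for C3 chr17:57228137-57228386, each read 5′ to 3′ on the minus strand and stopping before the annotated exons. Capitals mark GAGGAA on either strand, the core bound by ETS factors such as PU.1, in the C1q genes, and TTGCNNAA, a C/EBP-type motif, in C3.
C1qb: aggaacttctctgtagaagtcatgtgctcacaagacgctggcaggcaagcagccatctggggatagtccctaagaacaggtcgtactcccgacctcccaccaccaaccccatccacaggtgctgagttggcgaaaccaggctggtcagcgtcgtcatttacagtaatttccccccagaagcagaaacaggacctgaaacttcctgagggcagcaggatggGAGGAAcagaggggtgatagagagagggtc
C1qc: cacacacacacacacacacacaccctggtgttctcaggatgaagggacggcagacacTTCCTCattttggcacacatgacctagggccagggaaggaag
C3: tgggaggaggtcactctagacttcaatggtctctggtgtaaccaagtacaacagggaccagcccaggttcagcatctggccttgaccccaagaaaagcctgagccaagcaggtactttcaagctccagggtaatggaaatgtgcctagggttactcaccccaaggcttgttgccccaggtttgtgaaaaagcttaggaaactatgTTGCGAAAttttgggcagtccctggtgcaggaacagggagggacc
GAGGAA on either strand was present in 23.3% of all 32851 windows of 250 bases before a gene start, and TTGCNNAA in 9.56%. TTCNNNGAA, a STAT-type motif (7.02% of windows), and the interferon-stimulated response element (2.98%) were also searched and had no match in the 250 bases before the 5 genes. An NF-kB-type pattern (17.6% of windows) matched in C1qb, C1qc and C3, and it can overlap itself on the 2 strands. The windows of C3ar1 and C5ar1 were searched too and matched none of these patterns, GAGGAA included. The search covered 250 bases for each gene, of which 99 are shown for C1qc, and the NF-kB-type match of C1qc lies outside those shown. A match is a description of the letters, not a binding site.

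Cell classes differed in which members they carried. The C1q genes and the receptors C3ar1 and C5ar1 were in the myeloid classes: microglia-like cells held 94.5% of all C1qa UMIs in the control library and 84.3% in OIR, and border macrophage-like cells 2.65% and 10.7%. Serping1 had no UMI in microglia-like cells and had its largest share of UMIs in Müller glia-like cells, 38.8% in control and 51.8% in OIR. C4b lay mostly in microglia-like cells in the control library (53.5%) and most often in Müller glia-like cells in OIR (33.0%). C3 was sparse, with 30 UMIs in the control library and 146 in OIR, of which bipolar-like cells held 23.3% and 62.3%. Cfb was close to absent, with 14 and 20 UMIs.

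**Figure D1:**
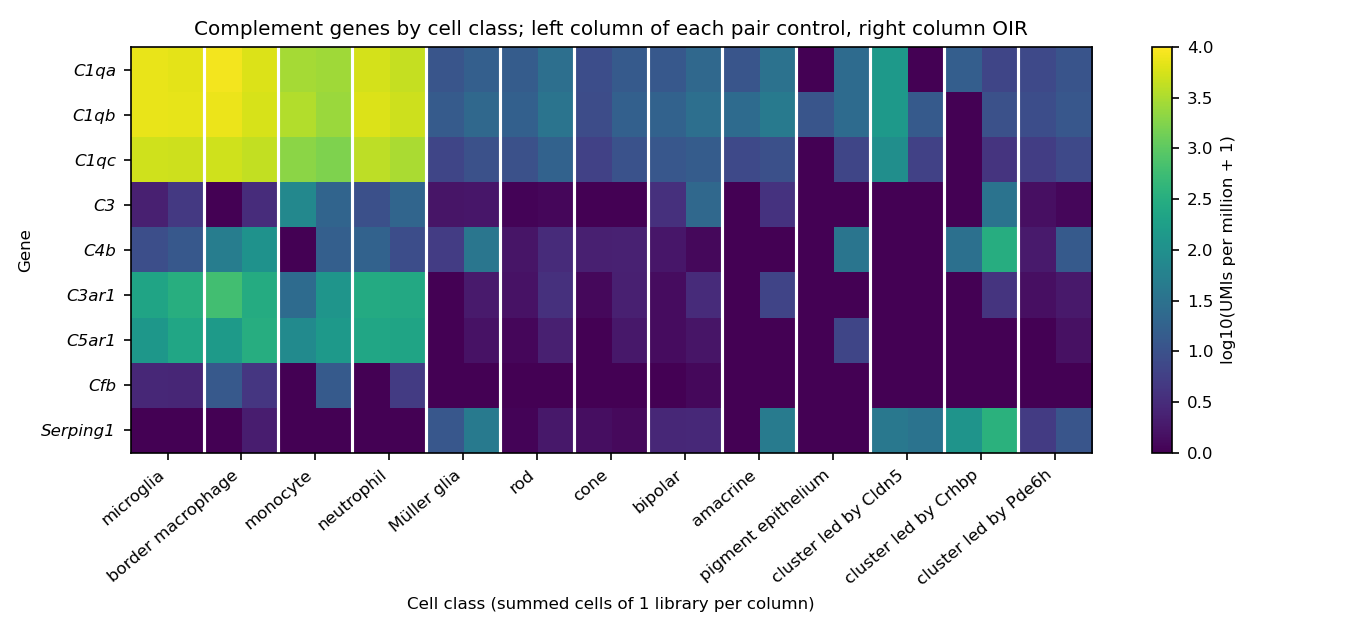
Heat map of the 9 genes (rows) in 13 cell classes or clusters (paired columns, control left and OIR right), coloured by log10 of the gene's UMIs on the counts-per-million (CPM) scale, over all UMIs of the class, plus 1. The C1q rows are bright only in the first 4 myeloid classes, at up to 8420 CPM, while Serping1 is at 0 in microglia. C3 reaches 21.3 in OIR bipolar cells, above their control level. It is brighter in control monocytes (9 UMIs) and OIR Crhbp-led cells (11 UMIs).

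C1q RNA was abundant in microglia-like cells and at a similar level in both libraries. C1qa was at 7350 CPM in the control library and 6950 in OIR. For C1qb the levels were 7460 and 7130 CPM, and for C1qc 5050 and 4900 CPM. The log2 ratios of OIR over control were -0.08 (interval -0.10 to -0.06), -0.06 (-0.08 to -0.05) and -0.04 (-0.07 to -0.02). These small differences exclude 0 in counting terms and are smaller than the effect of scaling: median-of-ratios scaling moved microglia ratios by 0.115 upward, which turned the sum of the 3 chains from -0.07 to 0.05. A gene is called higher or lower here when it reaches 20 CPM in 1 library, differs by at least 1.5-fold and has an interval that excludes 0, and no C1q gene was called in microglia-like cells.

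The 8 microglia clusters, named by their leading gene, were all rich in C1q, although they differed widely in other genes. The clusters led by Egr3 and Tcim, with Tmem119 at 647 and 653 CPM in the control library, carried C1qa, C1qb and C1qc at a summed 20700 and 19500 CPM. The cluster led by Csf1, found mostly in OIR (17 and 136 cells), carried 20200 CPM in its control cells and 20800 CPM in its OIR cells. In the Mmp12-led cluster (0 and 93 cells), where Spp1 reached 2130 CPM and Tmem119 was at 107 CPM, the sum was 17900 CPM. The lowest sum, 16500 CPM, was in the Hmox1-led cluster of OIR (116 cells), whose cells were shallow (median 2230 UMIs) and carried haemoglobin RNA. Dividing cells of the Birc5-led cluster (60 OIR cells, Mki67 at 418 CPM) held 17700 CPM, and border macrophage markers summed to 3680 CPM there. Thus the level in the clusters spanned 16500 to 23300 CPM, the top being the 26 Egr3-led cells of OIR. Within the 5 clusters with at least 15 cells in both libraries the log2 ratio of the sum lay between -0.08 and 0.16.

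Nearly every microglia-like cell carried all 3 chains: 830 of 837 control cells (99.2%) and 615 of 641 OIR cells (95.9%). No control cell and 2 OIR cells had no C1q UMI. The chains together made up a median 1.95% of a control cell's UMIs, with the 5th and 95th percentiles at 1.07% and 2.91%. In OIR the median was 1.81% and the same percentiles were 0.422% and 3.1%, a wider spread that reached lower. Of the 3 chains' UMIs, C1qa gave 37.0% in control and 36.6% in OIR, C1qb 37.6% in both, and C1qc 25.4% and 25.8%, so the proportions differed by less than 1 percentage point between the libraries.

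In Müller glia-like cells and in the rod-like, bipolar-like and cone-like neurons the C1q genes were present at under 1% of their microglial level. An unnamed cluster led by Cldn5, with endothelial and pericyte genes, held more in control, at a summed 377 CPM (266 UMIs in 47 cells), but 85 of its 101 C1qa UMIs lay in 1 cell. In rod-like cells C1qa stood at 13.5 (control) and 27.6 CPM (OIR), and C1qb at 16 and 33 CPM. The log2 ratios were 1.03 (0.78 to 1.28) and 1.04 (0.82 to 1.27), and both were called higher, in a class where 3.88% of 6540 genes were. The sum of the chains in rod-like cells was 0.193% of the level in microglia-like cells in control and 0.409% in OIR. The 15 microglia markers, which rods lack, stood at 0.131% to 0.452% of their own microglial level in control (median 0.178%) and at 0.299% to 0.77% in OIR (median 0.474%). C1q therefore lay within the range of microglia marker RNA in both libraries, and both measures were higher in OIR. The chain proportions in rod-like cells leaned somewhat more to C1qb than in all microglia-like cells summed. C1qb gave 41.7% (38 to 45.5) of the 3 chains' UMIs in control rods and 42.5% (39.1 to 45.9) in OIR rods, above the 37.6% of microglia in counting terms, while C1qa at 35.2% and 35.5% was within counting error of control and OIR microglia. C1qc gave 23.1% (19.9 to 26.4) in control and 22% (19.2 to 24.9) in OIR rods, the latter below the 25.8% of OIR microglia. The lean was not particular to rods. C1qb gave 47.6% (41.2 to 54) in Müller glia-like and 44.6% (38.6 to 50.8) in bipolar-like cells of OIR. Their control intervals, and both cone-like intervals, included 37.6%. In the microglia cluster led by ribosomal genes C1qb gave 41.3% (39.9 to 42.7) in control and 38.6% (36.7 to 40.5) in OIR. Bipolar-like cells gave 0.202% and 0.334% against marker medians of 0.173% and 0.343%, cone-like cells 0.103% and 0.197% against 0.128% and 0.256%, and Müller glia-like cells 0.149% and 0.239% against 0.153% and 0.214%. No expression or change by these cells is read from levels within the range of the markers, including the higher OIR values of C1qa and C1qb in rod-like and bipolar-like cells and of C1qb in Müller glia-like cells. The source of this RNA was not tested.

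**Figure D2:**
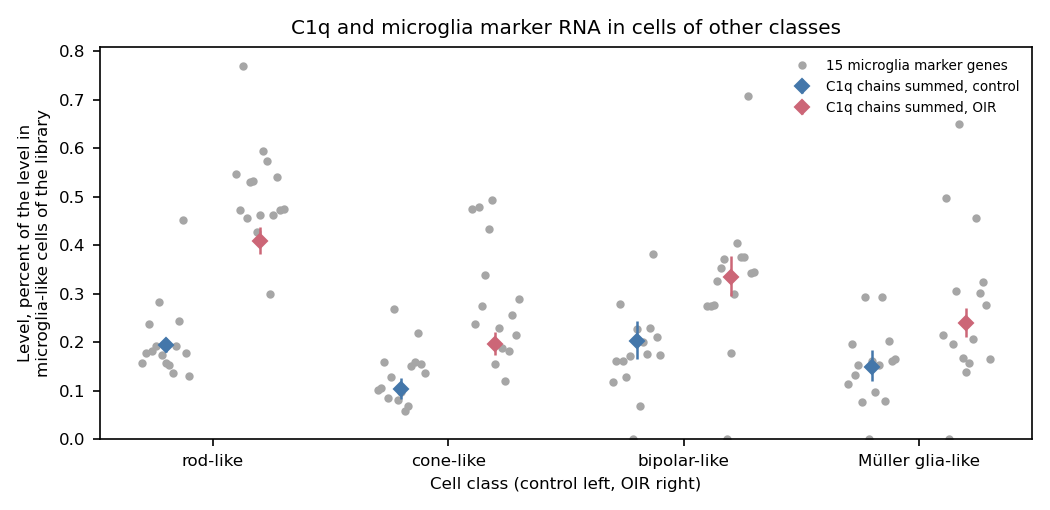
Level of the summed C1q chains (diamonds with 95% counting intervals) and of 15 microglia marker genes (grey points) in 4 non-myeloid classes, as a percent of the level in microglia-like cells of the same library. C1q sits inside the cloud of marker genes in every class, at 0.193% in control and 0.409% in OIR rods.

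C3ar1 and C5ar1, the receptors for C3a and C5a, were both higher in microglia-like cells of OIR. C3ar1 was at 212 CPM (201 to 223) in control and 321 CPM (308 to 336) in OIR, a log2 ratio of 0.60 (0.50 to 0.70). C5ar1 was at 132 CPM (123 to 141) and 228 CPM (217 to 240), a log2 ratio of 0.79 (0.67 to 0.92). With both called, 2 of the 5 members measured in microglia-like cells were higher, none was lower, and 12.2% of all 6084 genes tested there were higher. After thinning each cell to 1500 UMIs, C3ar1 was seen in 22.2% of 779 control and 25.9% of 559 OIR cells (57.8% and 55.5% unthinned). C5ar1 was seen in 14.6% and 22.7% (46.2% and 49.3% unthinned), against 0.0677% and 0.112% of rod-like cells. The highest count in 1 cell was 17 (control) and 35 (OIR) for C3ar1, and 13 and 30 for C5ar1.

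The receptors behaved differently once microglia were divided into clusters. C3ar1 was highest in the clusters that OIR filled: 433 CPM in the Mmp12-led cluster and, in the Csf1-led cluster, 335 CPM in OIR and 403 CPM in its 17 control cells. In the clusters that control cells filled it stood at 235 (Egr3-led) and 149 CPM (Tcim-led) in control and at 268 and 201 CPM in OIR. Within clusters it was not called: the log2 ratios were -0.27 (Csf1-led), -0.07 (the Cnga1-led cluster, which carries rod RNA), 0.19 (Egr3-led), 0.25 (ribosomal genes) and 0.43 (Tcim-led). Without the Mmp12-led cluster the ratio over all microglia-like cells was 0.34 and without the Hmox1-led one too 0.42. At a coarser clustering, which kept 380 OIR cells under this name, the C3ar1 ratio was -0.08. That clustering named neutrophil, and so left out, a cluster of 17 control and 224 OIR cells. Its leading genes included S100a9, S100a8, Mmp12 and Slc7a11, and its part in the ratio was not tested. C5ar1 was higher within the Cnga1-led (117 to 202 CPM, 0.79), Csf1-led (157 to 245 CPM, 0.65) and Egr3-led clusters (155 to 310 CPM, 1.0), the last with 26 OIR cells; of all genes tested in these clusters, 9.36%, 4.92% and 5.14% were higher. In the Tcim-led cluster C5ar1 was at 105 and 124 CPM (0.25). At the coarser clustering its ratio over the cells still named microglia was 0.38, under the 1.5-fold limit. Both receptors were low in the shallow clusters led by ribosomal genes (53.3 CPM each in control) and by Hmox1 (74.8 and 43.6 CPM). A UMI of each receptor was present in 281 of the control cells and 266 of those from OIR.

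**Figure D3:**
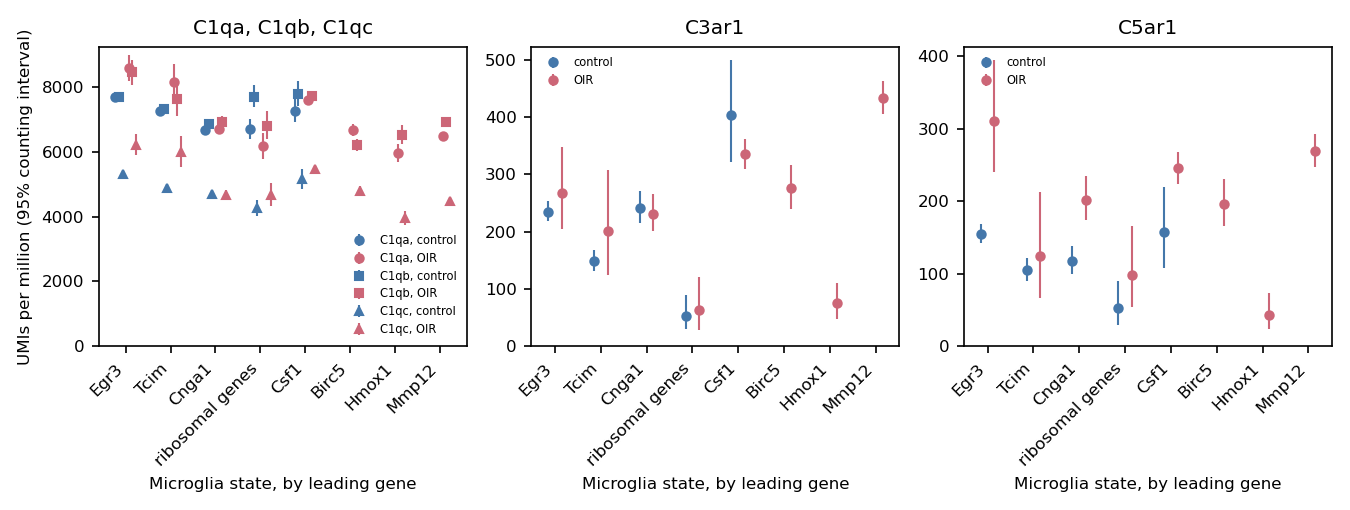
CPM (linear axis, 95% counting intervals) of the 3 C1q chains, C3ar1 and C5ar1 in microglia clusters, named by leading gene, for control (blue) and OIR (red) where a library has at least 15 cells. C1q is of like height in every cluster, C3ar1 is highest in the Csf1-led and Mmp12-led clusters, and C5ar1 is higher in OIR in the Egr3-led, Cnga1-led and Csf1-led clusters.

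C3, the central protein of the cascade, was found in bipolar-like cells, the neurons that relay photoreceptor signals. It had 7 UMIs among 269 control cells (2.55 CPM, 1.03 to 5.25) and 91 UMIs among 475 OIR cells (21.3 CPM, 17.2 to 26.2). The log2 ratio was 3.06 (1.96 to 4.42), which is 8.35-fold, and C3 was called higher where 4.09% of 7193 genes were. Its UMIs were spread over many cells: 61 OIR cells (12.8%) had at least 1, 20 of them 2 or more, and the highest held 6, while in control 7 cells (2.6%) held 1 each. Leaving out the cell with the most C3 UMIs in each library gave 3.19. Median depth was similar, at 7273 UMIs in control and 6269 in OIR. After thinning to 1500 UMIs, a C3 UMI remained in 1.12% of cells in the control library (3 of 268, interval 0.231 to 3.24) and in 2.36% in OIR (11 of 466, interval 1.18 to 4.18), so at that depth the intervals overlap.

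In the classes that should lack it C3 was at 0.113 and 0.187 CPM in rod-like cells (2 UMIs in each library) and at 0 in cone-like cells of both libraries. Both bipolar clusters carried it. The cluster led by Gsg1 went from 6 UMIs (2.56 CPM, 205 cells) to 69 UMIs (23.3 CPM, 246 cells), and that led by Pcp2 from 1 UMI (2.49 CPM, 64 cells) to 22 UMIs (16.8 CPM, 229 cells). Cells with a UMI of Grm6, the glutamate receptor of ON bipolar cells, held 87 of the 91 OIR UMIs (22.6 CPM in 402 cells), and those without held 4 (9.45 CPM, 2.57 to 24.2, in 73 cells). Because a Grm6 UMI also depends on depth, this split is a range of cells and not a type. With the per-cell marker gate, 203 control and 330 OIR bipolar cells held 5 and 46 C3 UMIs (2.59 and 17.4 CPM). The OIR level was then below the 20 CPM needed for a call. Under a stricter filter, of at least 1000 genes and at most 5% mitochondrial UMIs, 37 and 147 bipolar-like cells were left, the log2 ratio was 1.94 and C3 was no longer called. Bipolar-like cells had a median 6.87% mitochondrial UMIs in control and 6.15% in OIR, and rod genes made up 0.0985% and 0.2% of their UMIs; beyond that filter, their part in the result was not tested.

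C3 had few UMIs elsewhere. Microglia-like cells held 8 UMIs (1.21 CPM) in control and 23 (3.57 CPM) in OIR, in 7 and 22 cells, below the 20 CPM needed for a call. The 93 Mmp12-led cells held 11 of the 23. Monocyte-like cells, 12 and 30 in number, held 9 and 6 UMIs, and the 9 control UMIs lay in 3 cells. An unnamed cluster of 18 OIR cells led by Crhbp held 11 UMIs, 9 of them in 1 cell. Neutrophil-like cells held 1 UMI in control and 5 in OIR. These classes are small, so on the CPM scale few UMIs weigh much. Control monocyte-like and OIR Crhbp-led cells stood above the 21.3 CPM of OIR bipolar-like cells. OIR monocyte-like and neutrophil-like cells stood close to it.

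C4b, the fourth component of the classical pathway, was higher in Müller glia, the radial glia of the retina. Müller glia-like cells held 12 UMIs in control (4.16 CPM, 2.15 to 7.27) and 195 in OIR (35.6 CPM, 30.8 to 41.0). The log2 ratio was 3.10 (2.26 to 4.08), or 8.56-fold. In control 11 of 261 cells (4.21%) had a UMI, and in OIR 96 of 392 (24.5%), with at most 2 and 12 in 1 cell. After thinning to 1500 UMIs the shares were 0.794% (0.0963 to 2.84) and 6.72% (4.35 to 9.84), against 0.0338% and 0.223% of rod-like cells. C4b has a near-identical neighbour, C4a, whose symbol was not among the genes counted in the files, so which of the pair a read came from is uncertain.

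Serping1, the inhibitor of C1, was higher in the same cells. It went from 33 UMIs (11.4 CPM, 7.88 to 16.1) to 242 UMIs (44.2 CPM, 38.8 to 50.2), a log2 ratio of 1.95 (1.42 to 2.52), or 3.86-fold. Cells with a UMI were 25 (9.58%) in control and 110 (28.1%) in OIR, and after thinning 1.19% (0.246 to 3.44) and 7.0% (4.58 to 10.2). Of the OIR cells 42 carried UMIs of both C4b and Serping1. With C1qb, whose level lay within the range of the microglia markers, 3 of the 3 members measured in Müller glia-like cells were called higher, and 8.55% of all 6879 genes were. Both genes stayed called under the stricter filter (30 and 157 cells, 2.08 for C4b and 1.61 for Serping1), at the coarser clustering (3.20 and 1.69), with a per-cell marker gate (3.07 and 1.85) and without the cell with the most UMIs (3.29 and 2.10). Under the stricter filter the control cells held only 2 C4b and 4 Serping1 UMIs.

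Depth and rod RNA moved along with the groups in Müller glia-like cells. Median depth was 8965 UMIs in control and 10646 in OIR, the median mitochondrial share 7.13% and 5.14%, and the median share of rod-gene UMIs 0.104% and 1.63%. Rod-like cells carried C4b at 0.677 and 2.15 CPM and Serping1 at 0.113 and 0.84 CPM, well under the Müller glia levels. The difference was about as large without cells holding a UMI of Lcn2 or Serpina3n. In OIR, 112 Müller glia-like cells with a UMI of Lcn2 or Serpina3n, genes of reactive glia, had C4b at 40.3 CPM (32.8 to 49.1) and Serping1 at 45.2 CPM (37.2 to 54.5). The 280 OIR cells without one had 31.8 CPM (25.8 to 38.8) and 43.4 CPM (36.3 to 51.5). Those without one were 256 in control and gave log2 ratios of 2.90 (C4b) and 2.02 (Serping1). The marked cells were deeper, at a median 19149 UMIs against 8317. Because such a UMI also depends on depth, this split is a range of cells and does not separate reactive cells from others.

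**Figure D4:**
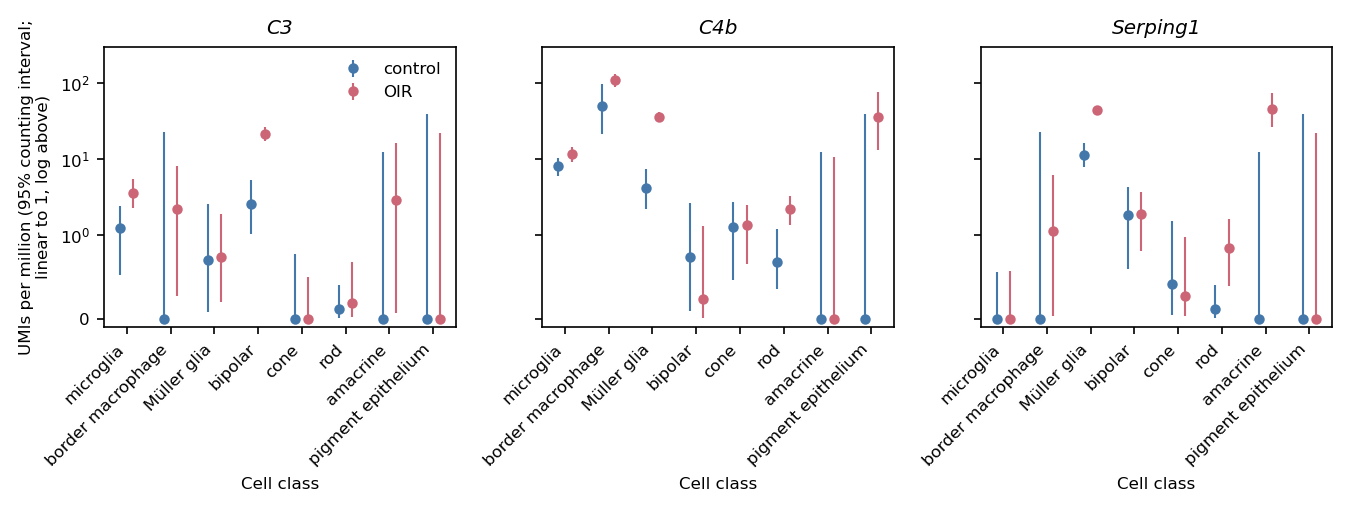
CPM of C3, C4b and Serping1 in 8 cell classes for control (blue) and OIR (red), with 95% counting intervals, on an axis that is linear to 1 and logarithmic above. C3 stands out in OIR bipolar cells at 21.3, and microglia have no Serping1 UMI. In Müller glia C4b and Serping1 reach 35.6 and 44.2 in OIR, above their control levels. C4b is higher in border macrophages of both libraries than in Müller glia, and of like height in OIR pigment epithelium (6 UMIs). Serping1 is of like height in OIR amacrine cells (16 UMIs in 4 cells).

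UMIs of the same 2 genes were also present in smaller classes and unnamed clusters. The Pde6h-led cluster, 56 and 163 cells with mixed cone, Müller glia and rod genes, went from 2 to 71 C4b UMIs (0.967 to 12.4 CPM) and from 8 to 58 Serping1 UMIs (3.87 to 10.2 CPM), which were 12% and 12.4% of all UMIs of these genes in OIR. Its median depth was 30469 UMIs in control and 30729 in OIR, against 8965 and 10646 in Müller glia-like cells. The part of Müller glia RNA in its C4b and Serping1 counts was not tested. The Crhbp-led cluster, 5 control and 18 OIR cells that also express Optc and Fbln1 and stay unnamed, had Serping1 at 117 CPM (8 UMIs) and 352 CPM (118 UMIs), and C4b at 29.2 CPM (2 UMIs) and 310 CPM (104 UMIs, 44 of them in 1 cell). Too few cells were in its control part for a ratio. Cells led by Cldn5, with endothelial and pericyte genes together, held Serping1 at 38.3 CPM (27 UMIs) in control and 32.3 CPM (13 UMIs) in OIR, with no C4b UMI. Amacrine-like cells held 16 Serping1 UMIs in 4 of 34 OIR cells, 9 of them in 1 cell, and none in 79 control cells. Pigment epithelium-like cells held 6 C4b UMIs in 3 of 44 OIR cells, a CPM like that of Müller glia-like cells, and none in 28 control cells. In microglia-like cells C4b stood at 7.98 (control) and 11.5 CPM (OIR), below the 20 CPM needed for a call. Serping1 had 0 UMIs among 837 and 641 microglia-like cells, whose interval reaches 0.556 and 0.572 CPM.

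Cfb, the protease of the alternative pathway, had 12 UMIs in control (1.81 CPM) and 11 UMIs in OIR (1.71 CPM) in microglia-like cells, in 11 and 8 cells. Rod-like, cone-like and Müller glia-like cells of both libraries held none. No difference was detectable at this depth. Cfb shares exon bases with the overlapping gene model Gm20547 on the same strand, so reads could have been split between them.

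Border macrophages, the macrophages along vessels and membranes, were few in control, and the control cells under this name differ from the OIR cells. Pf4, a marker of these cells, was at 506 CPM in 22 control cells and 7650 CPM in 83 OIR cells, while Tmem119, a microglia marker, was at 290 and 32.0 CPM. Levels are therefore given without reading a change. Itgam was at 339 and 119 CPM and Itgb2 at 160 and 97.1 CPM. C1qa was at 8420 and 6260 CPM, near its level in microglia. C3ar1 was at 604 CPM (491 to 736) in control and 292 CPM (258 to 330) in OIR, and C5ar1 at 148 (94.8 to 220) and 310 CPM (275 to 349). C4b reached 110 CPM in OIR (100 UMIs in 30 of 83 cells) and 49.3 CPM in control (8 UMIs). The OIR cells also carried Fcna (ficolin, 252 CPM), Cfp (properdin, 249 CPM), Colec12 (88.3 CPM), C2 (56.3 CPM) and Cd93 (49.7 CPM), which stood at 18.5, 6.17, 0, 12.3 and 0 CPM in the 22 control cells. Monocyte-like and neutrophil-like cells held C1q at a summed 8390 and 15500 CPM in control and 6840 and 12500 CPM in OIR. Microglia markers summed to 17200 and 26500 CPM in those control cells and to 9430 and 13800 CPM in OIR, against 23600 CPM in the control border macrophage-like cells, and their part in the C1q level was not tested.

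Of the wider list of complement genes, 54 were in the files, and 12 of them were measured in microglia-like cells: 3 were higher, 2 were lower, and the median log2 ratio was -0.07, against 12.2% higher, 18.2% lower and a median of -0.113 over all genes tested. Besides C3ar1 and C5ar1, Itgax, the alpha chain of complement receptor 4, was higher (11.6 to 30.1 CPM, 1.37). It was no longer called at the coarser clustering (0.60), which left out the cluster of 224 OIR cells named neutrophil there. C5ar2, the other receptor for C5a, was lower (71.3 to 30.1 CPM, -1.24). C5ar1 and C5ar2 thus lay on opposite sides of 0. Itgam (464 to 388 CPM, -0.26) and its partner Itgb2 (203 to 184 CPM, -0.15) were within 1.5-fold.

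**Figure D5:**
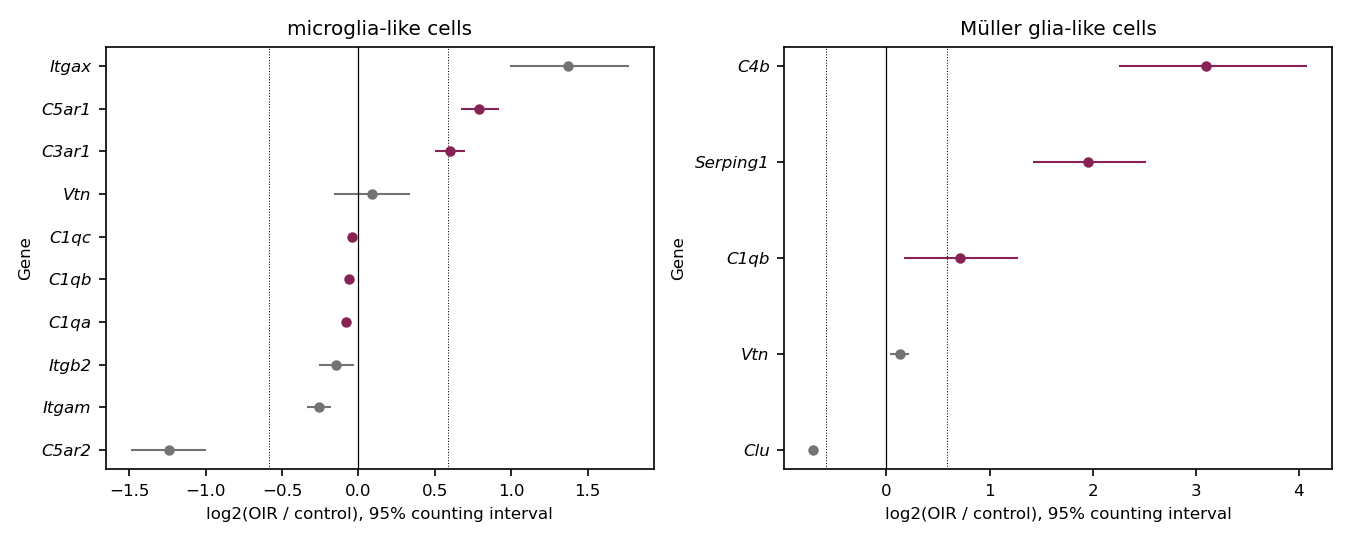
Log2 ratio of OIR over control with 95% counting intervals for complement genes named in the text, of at least 20 CPM, in microglia-like (left) and Müller glia-like cells (right). Members are purple, other genes grey, and dotted lines mark 1.5-fold; the C1q chains sit between -0.08 and -0.04 in microglia, and C4b at 3.10 in Müller glia.

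In Müller glia-like cells 5 listed genes were measured, and 3 were higher and 1 lower, where 8.55% and 13.3% of all genes tested were. Their median log2 ratio was 0.71, against -0.03 over all genes. In bipolar-like cells 3 of 7 were higher and 2 lower, where 4.09% and 6.76% of all genes were (median 0.13 against -0.07). In rod-like cells 3 of 4 were higher, where 3.88% of all genes were (median 1.04 against 0.05). The C1q genes are among those counted as higher in each of these classes. Clu (clusterin), a regulator of the terminal pathway, was lower in Müller glia-like cells (2850 to 1750 CPM, -0.71), where 13.3% of genes were lower, but was not called there with a per-cell marker gate (-0.33). It was higher in rod-like cells (30.5 to 64.6 CPM, 1.08) and in amacrine-like cells (64.4 to 115 CPM, 0.83), where 7.7% of genes were. The rod-like levels were far below the 2850 and 1750 CPM of Müller glia-like cells, and the part of RNA from other cells in them was not tested. The amacrine-like cells of the libraries were not alike: their median depth was 1252 UMIs in control and 5026 in OIR, rod markers summed to 20700 and 4770 CPM, and 83 of them passed the per-cell gate for rods. The part of these in the Clu ratio was not tested. Vtn (vitronectin), another inhibitor of the terminal pathway, was not called in Müller glia-like (469 and 513 CPM), rod-like (954 and 750 CPM) or cone-like cells (858 and 697 CPM). Under the stricter filter it was called higher in Müller glia-like cells, at 1.28 (0.90 to 1.68) with 30 and 157 cells. In bipolar-like cells Vtn was lower (137 to 76.5 CPM, -0.84), as was Csmd3 (47.4 to 29.5 CPM, -0.68), where 6.76% of genes were lower. Rod markers summed to 8940 and 5410 CPM in bipolar-like cells, and rod-like cells are rich in Vtn; their part in the Vtn ratio was not tested. With doublets kept the Vtn ratio was -0.57 and with the gate 0.00, and with the stricter filter the Csmd3 ratio was -0.36, none of them called. Cd59a, which blocks the membrane attack complex, was higher in cone-like cells (106 to 164 CPM, 0.63), where 2.78% of genes were, and was within 1.5-fold at the coarser clustering (0.50) and with the gate (0.29). In pigment epithelium-like cells Clu stood at 7530 and 6910 CPM and was not called. Cells led by Cldn5, 47 and 15 in number, held Cd93, a receptor of endothelial and myeloid cells, at 700 and 1590 CPM and Vtn at 306 and 747 CPM. In the amacrine-like cells, 79 and 34 in number, Cd59a had 2 and 47 UMIs and Vtn stood at 335 and 51.6 CPM.

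The genes outside the list whose levels ran most like each member over 22 class-by-library units of at least 50 cells were found among the 7039 genes compared. For C1qa they were Fcer1g, Spi1 and Fcrls (Pearson's r of log2 CPM, 0.998 each). For C1qb they were Tyrobp, Spi1 and Trem2 (0.997 each), and for C1qc Fcer1g, Fcrls and Spi1 (0.998 each). C3ar1 ran with Abcc3, Tlr13 and Csf2rb2 (0.990 to 0.994), and C5ar1 with Fcgr2b, Tnfrsf11a and Lcp1 (0.990 each). C4b ran with Ddx60, Rsad2 and Gbp7 (0.898, 0.841 and 0.834), and Serping1 with Hsd17b2, Npas3 and Itgb8 (0.966, 0.958 and 0.956). C3 had no close match, with Cln6, Tcp1 and Cep112 at 0.766, 0.726 and 0.708. The units share 2 libraries and their free RNA, so these coefficients describe where RNA lay.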

How the data were processed

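The authors deposited filtered matrices of raw UMI counts per gene and cell, 1 for the control and 1 for the OIR library, made with Cell Ranger 3.0.2 against mm10, per the submitters' processing notes. Cells with at least 500 genes and at most 10% mitochondrial UMIs were kept (9454 and 6516). The automatic doublet caller marked 4 and 0 barcodes, so the highest doublet scores were removed instead, at 0.8% per 1000 cells (938 and 424 barcodes). The rest were clustered with scanpy 1.11.5 and leidenalg 0.10.2 (Python 3.11.15), leaving out the complement genes, and named from marker lists. A class compared between libraries needed 15 cells in each. Counts were summed per class and library. CPM intervals are exact Poisson, shares Clopper-Pearson and ratios conditional binomial (scipy 1.17.1), all at 95%. A call needed 20 CPM in 1 library, 1.5-fold and an interval excluding 0. The text names the 9 members, other listed complement genes that were called or reached 100 CPM in a class, and the 3 genes most like each member with at least 100 UMIs, by Pearson's r of log2(CPM + 5) among genes of at least 50 CPM in 1 unit. A listed gene that the rule names is not reported here, though the list counts include it. The members and lists were chosen with earlier results of these data known. Alternatives were median-of-ratios scaling, stricter cells, kept doublets, coarser clustering, a per-cell marker gate, other CPM minimums and other thinning depths; leaving out clusters or cells was added after seeing the data. The counting was tested on simulated data.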

Additional observations from a re-analysis of the deposited data

Results flagged for a closer look

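C3ar1 lay on opposite sides of 0 in both myeloid classes compared: OIR over control gave a log2 ratio of 0.60 in microglia-like cells and of -1.05 in border macrophage-like cells. With 1 library per group the difference was not tested, and the 22 control cells of the second class carried a marker profile unlike that of the 83 OIR cells. Clu was higher in rod-like (1.08) and amacrine-like cells (0.83) and lower in Müller glia-like cells (-0.71), and this difference was not tested. Its rod-like levels were far below those of Müller glia-like cells, and the part of RNA from other cells in them was not tested. The amacrine-like cells differed in median depth (1252 and 5026 UMIs) and in summed rod markers (20700 and 4770 CPM) between control and OIR, and 83 of them passed the gate for rods.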

How the results depend on the processing

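With 1 library per group no result has a replicate check, and no paired analysis was possible because each group holds 1 library. Of 287 values recomputed, 172 stayed the same, 110 moved and 5 reversed; the cause was not tested. Under median-of-ratios scaling the log2 ratio in microglia-like cells was 0.05 for summed C1q in place of -0.07 and 0.72 for C3ar1, and genes lower in rod-like cells numbered 130 in place of 82. That scaling also moved the split of genes higher and lower from 743 and 1110 to 942 and 811 in microglia-like cells, and from 294 and 486 to 400 and 328 in bipolar-like cells. With stricter cells the ratios were 2.08 (C4b, Müller glia), 1.94 (C3, bipolar, not called), -0.08 (C1q, microglia) and 1.17 (C1q, rods). With doublets kept, C1q was -0.02 in microglia and 0.67 in rods, and it reversed to -0.02 in bipolar-like cells. At the coarser clustering C1q was -0.05, C3ar1 -0.08 (reversed) and C5ar1 0.38 in microglia. A cluster of 224 OIR cells with Mmp12 among its leading genes was named neutrophil there and left out of these ratios. With the per-cell gate C1q in rods was 1.34, and Vtn in bipolar-like cells reversed to 0.00. C3 in gated bipolar cells of OIR stood at 17.4 CPM, under the 20 CPM minimum for a call. Leaving out the Mmp12-led cluster gave -0.03 (C1q), 0.34 (C3ar1) and 0.67 (C5ar1), and leaving out the Hmox1-led one too gave -0.01 and 0.42 for C1q and C3ar1. Within the Cnga1-led, Csf1-led, Egr3-led, Tcim-led and ribosomal clusters C1q was 0.01, 0.04, 0.16, 0.16 and -0.08. C3ar1 there was -0.07, -0.27 (both reversed), 0.19, 0.43 and 0.25, and C5ar1 in the Csf1-led, Egr3-led and Tcim-led clusters 0.65, 1.0 and 0.25. At a minimum of 50 CPM genes higher and lower numbered 440 and 653 (microglia), 342 and 439 (Müller glia), 137 and 173 (bipolar) and 105 and 45 (rods). With no minimum they numbered 1787 and 1861, 1133 and 1674, 612 and 919, and 1474 and 269. Depth limits Cfb in every class, and C3 outside bipolar-like cells, to at most 23 UMIs per class and library.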
